A study of Mus musculus with 12 samples.

Results

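The collagen, laminin, integrin and matrix genes are the 93 genes of the count table, of 24421 in all, whose symbols name a collagen chain, a laminin chain, an integrin subunit, fibronectin (Fn1), Sparc, a nidogen, perlecan (Hspg2), or one of the enzymes and chaperones that fold, hydroxylate and crosslink collagen. Members were matched by symbol alone, though the choice of these genes was made with earlier results of these data known. They were followed in mouse embryonic stem (mES) cells of the C57BL/6J strain (B6 in the labels) grown in 2i and LIF, all of which carried a degron knocked into Brg1, so that dTAG13, a small molecule that ties the tag to a ubiquitin ligase, removes the BRG1 ATPase of the mSWI/SNF chromatin remodeller. Cells received 0, 0.3, 1, 3, 10 or 100 nM dTAG13 for 24 h and total RNA was sequenced from 2 libraries at each of the 6 doses, 12 in all. The 0 nM libraries carry the same tag and differ from the others in dTAG13 alone as far as the labels say. The line was grown from colonies of single cells, and the cells stood on gelatin, itself denatured collagen, in medium with serum. The labels number the replicates of each dose, and the study describes its expression data as coming from independent experiments.

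The basement membrane is a sheet built of laminin trimers and a collagen IV network, which nidogens and perlecan tie together. Collagen chains are hydroxylated by prolyl and lysyl hydroxylases and escorted through the endoplasmic reticulum by Serpinh1, a chaperone specific to collagen, before secretion. Cells hold on to these sheets through integrins, pairs of an alpha and a beta subunit, and naive mES cells lay down laminin and fibronectin of their own.

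Levels are given in RPKM, counts per kilobase of exon scaled to library size with TMM factors, and a gene was tested where its mean was at least 1 RPKM over the 12 libraries. Of the 93 genes, 30 met that minimum, 63 did not, and every one had a count in at least 1 library. Of the 63, only P4ha2, Col7a1 and Loxl3 reached a mean of 1 RPKM at any dose. The 15 genes with a mean over 10 RPKM included Fn1, Lamc1, Itgb1, Sparc, Nid2, Col18a1, Lama5, Hspg2, Itga6, Itga5, Serpinh1, Nid1, Itgb5 and Col4a1. A gene was called higher or lower where edgeR's quasi-likelihood test gave a Benjamini-Hochberg adjusted p under 0.05, written hereafter as the edgeR adjusted p, and the fold change exceeded 1.5.

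Total counts ran from 4663484 to 6375582 per library, and the 45S ribosomal RNA gene Rn45s took 10.5% to 19.4% of them. The replicates of 3 nM and of 10 nM differed most from each other, as chi-square of their counts over genes, divided by its degrees of freedom, was 15.6 and 9.04 there and 1.959 to 5.74 at the other doses. Leaving Rn45s out, the values were 4.60 and 3.76, against 1.69 to 2.79. Smarca4, the gene of BRG1, is degraded as protein and not as transcript, with a transcript level of 63.9 ± 0.503 RPKM (SD, n = 2) in untreated cells and 71.3 ± 0.0942 RPKM (SD, n = 2) at 100 nM, so RNA does not check the depletion. All 8 markers of naive mES cells were expressed at every dose, with a summed level of 1294 to 1331 RPKM in the 0 nM libraries and 1285 to 1322 RPKM in the 100 nM libraries. Of them Tbx3 (log2 fold change -0.77) and Tfcp2l1 (-0.64) were nevertheless called lower at the highest dose. In all, 6 of the 8 passed the adjusted p at 100 nM, so the sum does not show the changes of single markers. Nanog (log2 fold change 0.52, edgeR adjusted p = 1.79e-08) and Klf4 (0.28, edgeR adjusted p = 0.00163) had higher values. Pou5f1 (-0.17, edgeR adjusted p = 0.0301) and Esrrb (-0.17, edgeR adjusted p = 0.0433) had lower values. None of these last 4 was called. Primitive, parietal and visceral endoderm, which also lay down basement membrane, have 14 markers on the list, and all 14 were under 1 RPKM at every dose. Their summed level was 3.00 to 3.15 RPKM at 0 nM and 4.69 to 5.40 RPKM at 100 nM. Their median log2 fold change at 100 nM was 0.81, beside 0.88 for all genes under the minimum. Pdgfra was called higher in the fit that includes low genes, from 3 and 6 counts to 28 and 20 counts. In that fit Sox7 had lower values and was not called (log2 fold change -1.24, edgeR adjusted p = 0.096). The 7 trophectoderm markers summed to 13.4 to 16.4 RPKM at 0 nM and 22.8 to 23.1 RPKM at 100 nM, with Cdx2 and Tfap2c called higher. Gata3 was not called and had lower values, from 28 and 23 counts to 12 and 10 counts (log2 fold change -1.23, edgeR adjusted p = 0.0919). Of 10 fibroblast markers 9 were under 1 RPKM at every dose, with a sum of 3.88 to 4.92 RPKM at 0 nM and 3.56 to 4.25 RPKM at 100 nM, and Pdgfrb was called lower, from 26 and 21 counts to 17 and 5 counts. The part of these cell types in the results was not tested, and in bulk RNA fewer cells of a type and less RNA per cell cannot be told apart. The S numbers in the sample descriptions run once over the 0, 1, 10 and 100 nM libraries and again over the 0.3 and 3 nM libraries, so at 0.3 and 3 nM the dose and the set of S numbers cannot be told apart.

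Upstream sequences are shown for 3 genes on which the results turn: Serpinh1, with the largest fall, and Itga5 and Itgb1, the subunits of the classical fibronectin receptor, of which one fell and the other rose. Each is the 250 bases before the RefSeq start on GRCm38.p6, read 5′ to 3′ on the strand of the gene, and none of them holds an annotated UTR base. Capitals mark GGGCGG, the core of a GC box, or CCGCCC, the same letters on the other strand.
Serpinh1, chr7:99353240-99353489, minus strand: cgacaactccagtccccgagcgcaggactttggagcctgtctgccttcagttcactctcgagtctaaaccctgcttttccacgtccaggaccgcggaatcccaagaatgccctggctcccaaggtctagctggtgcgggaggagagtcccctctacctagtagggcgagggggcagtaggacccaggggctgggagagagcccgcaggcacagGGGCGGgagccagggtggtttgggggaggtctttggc
Itga5, chr15:103366792-103367041, minus strand: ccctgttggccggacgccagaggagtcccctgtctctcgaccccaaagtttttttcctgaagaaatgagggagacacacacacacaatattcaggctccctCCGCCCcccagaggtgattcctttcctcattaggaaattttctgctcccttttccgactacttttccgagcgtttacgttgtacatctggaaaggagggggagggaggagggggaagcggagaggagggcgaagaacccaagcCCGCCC
Itgb1, chr8:128685404-128685653, plus strand: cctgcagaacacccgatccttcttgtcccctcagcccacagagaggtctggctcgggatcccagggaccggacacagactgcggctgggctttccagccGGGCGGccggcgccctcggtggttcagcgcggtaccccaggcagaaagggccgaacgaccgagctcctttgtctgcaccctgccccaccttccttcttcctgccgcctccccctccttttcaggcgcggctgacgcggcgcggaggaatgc
These letters stood at 1 place upstream of Serpinh1 and of Itgb1, and at 2 places upstream of Itga5. Among these 3 genes alone, the fallen and the risen thus both held them. Not every called gene with a window did. RefSeq windows were found for 66 of the 93 genes, 72 windows in all, of which 38 held GGGCGG on either strand, 18 held CCAAT, 6 held TATAAA and 1 held TGANTCA, the AP-1 motif. Among all 32851 windows of the same 250 bases, 32.7% held GGGCGG, 33.8% CCAAT, 12.4% TATAAA and 6.75% TGANTCA. None of the last 3 motifs was present in the sequences printed here. A match is a run of letters and not a measured binding site.

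At 100 nM dTAG13 the matrix genes moved in both directions. The nidogens, perlecan, fibronectin, Sparc and the collagen chaperone were lower, and the collagen IV chains Col4a1 and Col4a2 and integrin beta 1 higher. Of the 30 tested genes 13 fell and 5 rose, 18 in all, where 11.2% of all 11378 tested genes were called, 4.37% higher and 6.83% lower. The fallen genes included Serpinh1, Nid1, Itga3, Nid2, Sparc, Hspg2, Fn1, Col18a1, Col9a2, Lama1, Itga5 and Itgb5. The risen genes were Col4a2, P4ha1, Itgb1, Itga9 and Col4a1, of which 3 were called without 0 nM replicate 2. The median log2 fold change was -0.37 over the 30 genes and 0 over all tested genes. An edgeR adjusted p under 0.05 without regard to size was reached by 23 of the 30, against 23.4% of all tested genes. All 93 genes together took 0.489% and 0.491% of the counts in the 0 nM libraries and 0.331% and 0.3332% in the 100 nM libraries.

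**Figure D1:**
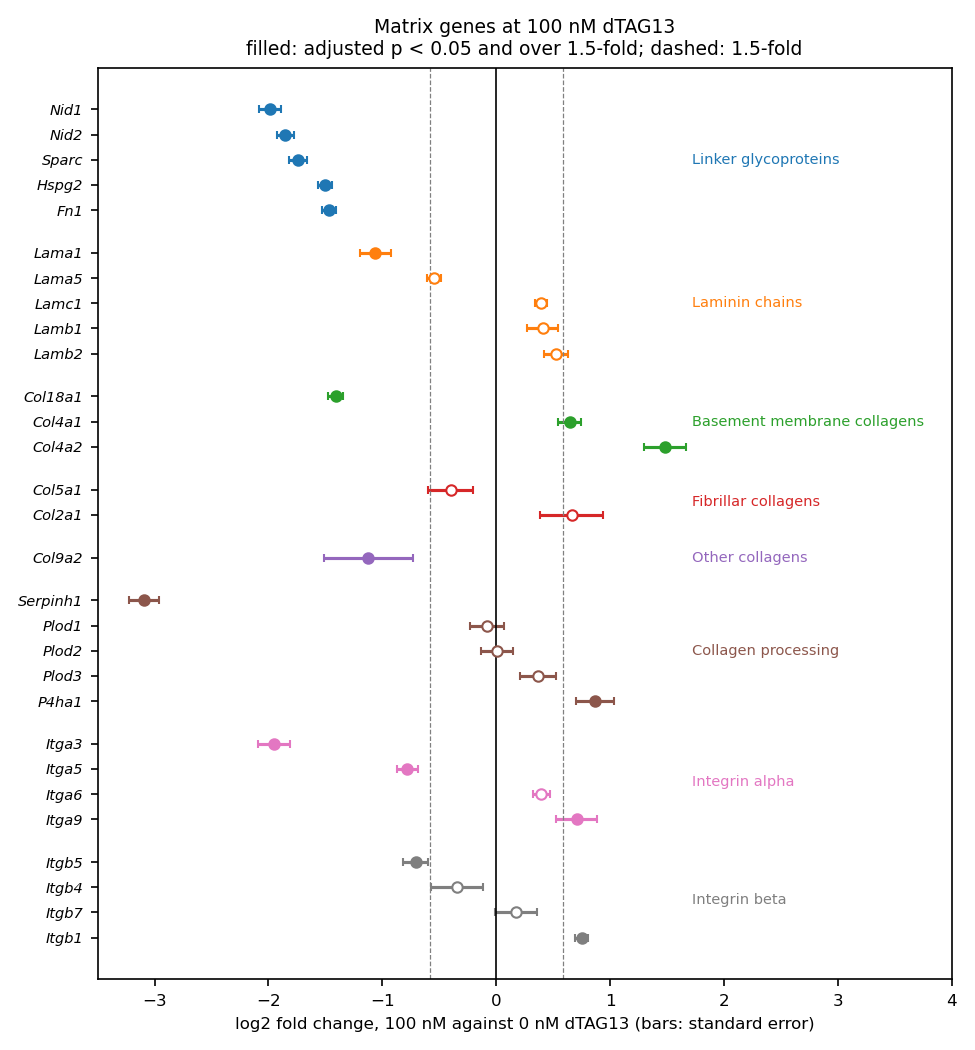
Fitted log2 fold change of 29 of the 30 tested matrix genes at 100 nM against 0 nM dTAG13 (x axis, bars show the standard error, 2 libraries per dose), grouped by role on the y axis. Filled points were called, open points were not, and dashed lines mark 1.5-fold: all 5 linker glycoproteins lie left of the line at -1.47 to -1.99, while Col4a2 lies farthest right at 1.49.

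Calls were fewest at the lowest dose and most numerous at the highest, with 1, 4, 12, 11 and 18 of the 30 genes at the 5 rising doses. At 0.3 nM 1 of the 30 genes, Serpinh1, was called lower, where 0.0176% of all tested genes were called. That call did not hold when any 1 of the 4 libraries compared was left out, with an edgeR adjusted p of 0.0891 to 0.136, while the log2 fold change stayed at -0.61 to -0.65. At 1 nM 4 genes were lower, among them Serpinh1, Lama1 and Fn1, and none higher (1 without 0 nM replicate 1), where 0.914% of all tested genes were called, 0.185% higher and 0.729% lower. Of these, Fn1 lay close to the 1.5-fold minimum and went under it without 0 nM replicate 1 (log2 fold change -0.55) or 1 nM replicate 2 (-0.58), and Lama1 lost its call without 0 nM replicate 2 (edgeR adjusted p = 0.0572) or 1 nM replicate 1 (0.122). At 3 nM 10 genes were lower and 2 higher, Col4a2 and Plod3, where 3.90% of all tested genes were called, 1.52% higher and 2.38% lower. Both rises lost their call without 0 nM replicate 2, DESeq2 called 1 gene higher, and without normalization factors 3 genes were higher and 8 lower. At 10 nM 10 genes were lower and 1 higher, Col4a2, where 7.93% were called, 3.01% higher and 4.92% lower. Without 0 nM replicate 1 or without normalization factors 3 genes were higher and 10 lower, and without 10 nM replicate 2, 2 were higher and 11 lower. The median log2 fold change of the 30 genes was -0.22, -0.19, -0.15 and -0.35 at 0.3, 1, 3 and 10 nM, and all of these comparisons share the 0 nM libraries.

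**Figure D2:**
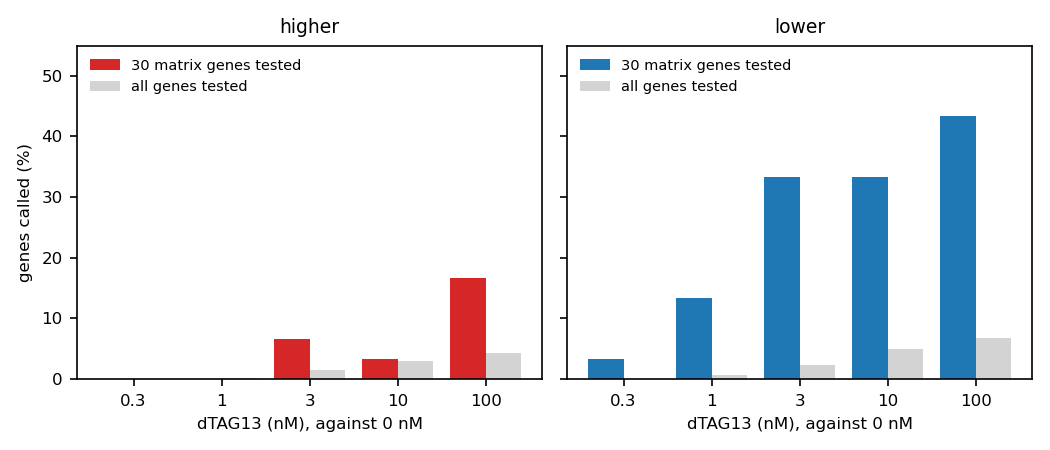
Percentage of genes called higher (left) and lower (right) against 0 nM at each dTAG13 dose, for the 30 tested matrix genes (coloured bars) and all tested genes (grey bars). The share of matrix genes called lower rises from 1 of 30 at 0.3 nM to 13 of 30 at 100 nM, beside 6.83% of all tested genes at 100 nM.

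Further comparisons, none of them against 0 nM, placed the changes along the series. The 0 nM libraries still entered the shared estimate of the spread. Between 0.3 and 3 nM, which lie within a single set of S numbers, 2 genes including Serpinh1 were lower and Col4a1, Col4a2 and Plod3 higher, 5 of 30 genes where 1.94% of all tested genes were called, 0.747% higher and 1.20% lower. Without 0.3 nM replicate 1 there were 2 calls, without 0.3 nM replicate 2 or 3 nM replicate 1 there were 3, and without 3 nM replicate 2 there were 4. DESeq2 called 1 gene higher. From 1 to 10 nM 8 genes fell and none rose (1 rose without 1 nM replicate 2), where 2.54% of all tested genes were called, 0.809% higher and 1.73% lower. They included Serpinh1, Itga3, Sparc, Hspg2, Nid1, Nid2 and Fn1. From 10 to 100 nM 5 genes fell further, among them Nid1, Serpinh1, Nid2 and Itga3, where 0.984% were called, 0.193% higher and 0.791% lower. Leaving out 1 library of that last pair of doses left 2 or 3 of the 5. Plod3, a lysyl hydroxylase, is named here because its calls are few, and it was chosen after its values were seen.

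Serpinh1 had the largest change of the 30 genes. It lies on mm10 chromosome 7 from 99345375 to 99353239. Its level was 34.6 and 34.4 RPKM in the 0 nM libraries, 22.7 and 22.0 RPKM at 0.3 nM, 16.04 and 15.3 RPKM at 1 nM, 9.22 and 10.3 RPKM at 3 nM, 7.78 and 6.08 RPKM at 10 nM, and 3.997 and 4.08 RPKM at 100 nM. The libraries of each dose lay below every library of the dose before it. The mean was 34.5 ± 0.153 RPKM (SD, n = 2) at 0 nM and 4.04 ± 0.0588 RPKM (SD, n = 2) at 100 nM, an 8.53-fold fall (log2 fold change -3.09, standard error 0.128, edgeR adjusted p = 1.65e-15). Relative to 0 nM it kept 64.7%, 45.4%, 28.3%, 20.1% and 11.7% of its level at the 5 rising doses. These levels rest on 493 and 517 counts without dTAG13 and on 59 and 61 counts at 100 nM.

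None of the 4 tested hydroxylases of collagen chains was called lower at any dose. P4ha1, a catalytic subunit of prolyl 4-hydroxylase, rose from 4.20 and 3.10 RPKM to 5.69 and 7.64 RPKM at 100 nM (log2 fold change 0.87, standard error 0.167, edgeR adjusted p = 2.98e-04). Plod1 and Plod2, lysyl hydroxylases, were not called at any dose. Their log2 fold changes at 100 nM were -0.08 (95% interval -0.38 to 0.21) and 0.01 (-0.27 to 0.28), so changes beyond 1.5-fold lay outside both intervals. Plod3 was called higher at 3 nM alone of the 5 doses, at 6.38 and 7.70 RPKM against 4.45 and 4.86 RPKM, a call that was lost without 0 nM replicate 2. In Plod2 9.32% and in Plod3 9.88% of exon bases are shared with another annotated gene, whose reads the unstranded counting cannot tell apart. P4ha2 and P4ha3 and all 5 lysyl oxidase genes, Lox and Loxl1 to Loxl4, were under the minimum, and none of these 7 was called.

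The 5 genes grouped here as linker glycoproteins, Fn1, Sparc, Nid1, Nid2 and Hspg2, all fell. Fibronectin, a dimer that binds integrins and collagens and was the most abundant transcript of the 93 genes, has its gene Fn1 on mm10 chromosome 1 from 71585473 to 71653234. It stood at 158 and 149.6 RPKM at 0 nM, 121 and 113 RPKM at 0.3 nM, 103 and 101 RPKM at 1 nM, 81.4 and 91.6 RPKM at 3 nM, 67.6 and 63.6 RPKM at 10 nM, and 55.01 and 56.2 RPKM at 100 nM. No 2 neighbouring doses overlapped, and at 100 nM the fall was 2.77-fold (log2 fold change -1.47, standard error 0.0591, edgeR adjusted p = 1.19e-15). Sparc, a secreted protein that binds collagen, fell from 119 and 101 RPKM to 32.9 and 32.8 RPKM (log2 fold change -1.74). Its 0 nM libraries differed more from each other than those of the other linkers. Nid1 and Nid2, the nidogens that bridge laminin and collagen IV, fell from 22.5 and 21.3 RPKM to 5.04 and 6.002 RPKM and from 59.2 and 64.4 RPKM to 17.3 and 16.97 RPKM. Their log2 fold changes were -1.99 and -1.85. Exons of Nid2 share 7.90% of their bases with a gene on the opposite strand. Hspg2, the heparan sulfate proteoglycan perlecan, fell from 36.3 and 35.8 RPKM to 12.4 and 13.1 RPKM (log2 fold change -1.50).

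Dose by dose, the linkers kept 76.1% (Fn1), 84.4% (Sparc), 81.1% (Nid1), 80.5% (Nid2) and 89.4% (Hspg2) of their 0 nM level at 0.3 nM. They kept 42.5% to 47.7% at 10 nM and 25.2% to 36.1% at 100 nM. At 10 nM these genes therefore lay close together, while Serpinh1 was already at 20.1%. From 10 to 100 nM, Nid1 and Nid2 fell by 0.84 and 0.68 on the log2 scale and were called, while the smaller declines of Fn1, Sparc and Hspg2 did not reach 1.5-fold.

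**Figure D3:**
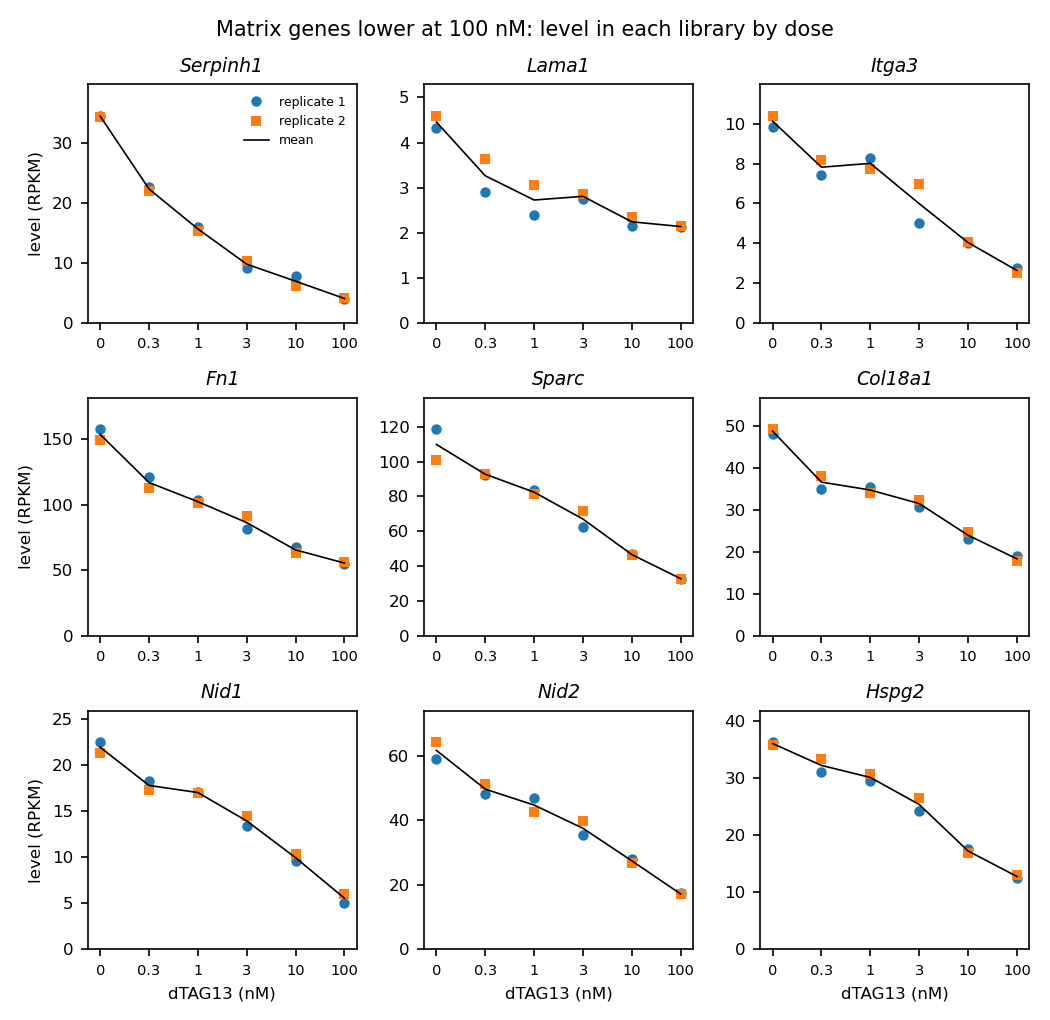
Level in RPKM (y axis, from 0, scaled for each gene) of 9 matrix genes called lower at 100 nM, in each library by dTAG13 dose (x axis, equal steps per dose). Circles and squares are replicates 1 and 2 and the line joins the means: Serpinh1 drops from 34.5 to 4.04 RPKM, while Nid1 goes from 45.3% to 25.2% of its 0 nM level between 10 and 100 nM.

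Laminin chains differed from one another. Lama1 fell, Lamc1, Lamb1 and Lamb2 had higher values that did not reach 1.5-fold, and the scarce Lama3 was lower. Lama3, an alpha chain of epithelial basement membranes, stood at 0.996 and 0.928 RPKM at 0 nM and 0.400 and 0.585 RPKM at 100 nM, and was called lower in the fit that includes low genes (log2 fold change -1.04, edgeR adjusted p = 0.00109). That call was lost with DESeq2 (adjusted p = 0.124) and without 100 nM replicate 1 (edgeR adjusted p = 0.098). Lamb3 had a log2 fold change of -1.16 (edgeR adjusted p = 0.313) at 0.383 RPKM and less, and was not called.

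Among the chains of the trimer that mES cells share with the early embryo, Lama1 stood apart from Lamb1 and Lamc1. Lama1 stood at 4.31 and 4.60 RPKM at 0 nM, 2.39 and 3.06 RPKM at 1 nM and 2.12 and 2.15 RPKM at 100 nM, a 2.09-fold fall (log2 fold change -1.06, standard error 0.137, edgeR adjusted p = 1.59e-06). Most of that fall was present at 1 nM, where 61.1% of the level remained, against 47.9% at 100 nM. Lamc1, the most abundant laminin chain, went from 78.3 and 76.3 RPKM at 0 nM to 102 and 101 RPKM at 100 nM. Its change of 0.39 on the log2 scale (edgeR adjusted p = 6.34e-06), that of Lamb1, 0.41 (0.0293), and that of Lamb2, 0.53 (4.51e-04), passed the adjusted p but not 1.5-fold. Lama5, another laminin alpha chain, declined to 68.4% of its level and missed 1.5-fold as well (log2 fold change -0.55, edgeR adjusted p = 1.87e-07). Lama5 exceeded Lama1 on the RPKM scale in every library, and Lama1 made up 10.8% and 11.4% of their sum at 0 nM and 8.04% and 7.99% at 100 nM.

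The integrin alpha chains that bind laminin also changed in proportion. Itga3 made up 30.2% and 33.2% of the summed RPKM of Itga3 and Itga6 at 0 nM, 12.6% in both libraries at 10 nM, and 8.88% and 7.86% at 100 nM. A ratio of genes in 1 library does not depend on the scaling.

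**Figure D4:**
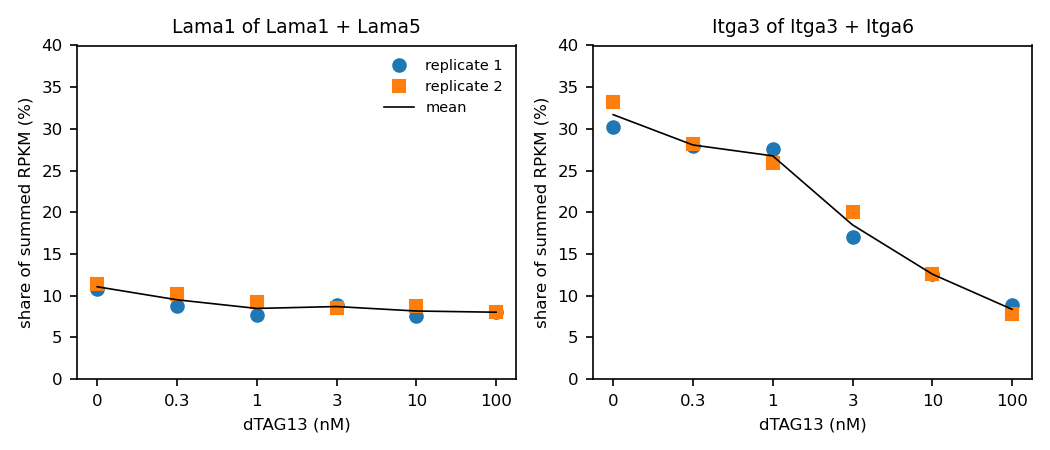
Share in percent (y axis) of Lama1 in the summed RPKM of Lama1 and Lama5 (left) and of Itga3 in that of Itga3 and Itga6 (right), in each library by dTAG13 dose (x axis, equal steps). Circles and squares are replicates 1 and 2 and the line joins the means: the first share goes from 10.8% and 11.4% to 8.04% and 7.99%, the second from 30.2% and 33.2% to 8.88% and 7.86%.

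Integrin subunits changed in both directions. Of 4 tested alpha subunits Itga3 and Itga5 fell and Itga9 rose, and of 4 beta subunits Itgb5 fell and Itgb1 rose. Itgb1, the beta subunit shared by the laminin, collagen and fibronectin receptors, lies on mm10 chromosome 8 from 128685654 to 128733579. It stood at 59.9 and 58.4 RPKM at 0 nM, 54.3 and 55.4 RPKM at 0.3 nM, 65.6 and 65.1 RPKM at 1 nM, 76.4 and 81.2 RPKM at 3 nM, 85.9 and 88.2 RPKM at 10 nM, and 98.7 and 100.4 RPKM at 100 nM. The libraries at 0.3 nM were the lowest and each later dose exceeded the one before it. At 100 nM the rise was 1.68-fold (log2 fold change 0.75, standard error 0.0567, edgeR adjusted p = 1.52e-10).

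The alpha subunits that pair with Itgb1 did not all move with it. Itga3, a laminin receptor subunit, fell from 9.85 and 10.4 RPKM to 2.77 and 2.48 RPKM, a 3.86-fold fall (log2 fold change -1.95, standard error 0.141, edgeR adjusted p = 7.78e-11). It stood at 7.44 and 8.20 RPKM at 0.3 nM, 8.28 and 7.75 RPKM at 1 nM, 5.01 and 6.96 RPKM at 3 nM, and 3.99 and 4.07 RPKM at 10 nM, so 0.3 and 1 nM overlapped. Itga5, the alpha subunit of the fibronectin receptor, fell from 25.3 and 25.7 RPKM to 14.9 and 14.8 RPKM (log2 fold change -0.78, edgeR adjusted p = 2.36e-07). Itga6, the other laminin receptor subunit, was at 22.7 and 21.0 RPKM at 0 nM and 28.4 and 29.1 RPKM at 100 nM, which passed the adjusted p but not 1.5-fold (log2 fold change 0.40, edgeR adjusted p = 2.45e-04). Itgb5, which pairs with the alpha V subunit in a vitronectin receptor, fell from 14.1 and 14.4 RPKM to 8.78 and 8.67 RPKM (log2 fold change -0.71, edgeR adjusted p = 2.13e-05), and was not called at any lower dose. Itga9 rose from 2.03 and 1.84 RPKM to 3.29 and 3.02 RPKM (log2 fold change 0.71, edgeR adjusted p = 0.00553), and lost its call without 0 nM replicate 2 (0.0664) or 100 nM replicate 1 (0.0618). Itgb4 and Itgb7 were not called, with 95% intervals of -0.79 to 0.10 and -0.19 to 0.54 on the log2 scale.

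Basement membrane collagens also moved in opposite directions. Col18a1, whose cleavage releases endostatin, fell from 48.3 and 49.5 RPKM to 19.0 and 17.8 RPKM, 2.66-fold (log2 fold change -1.41, standard error 0.0698, edgeR adjusted p = 5.72e-14). Of its level without dTAG13 it kept 75.1% at 0.3 nM, 71.3% in the 1 nM libraries and 49.2% in those at 10 nM. The collagen IV chains Col4a1 and Col4a2, which assemble into 1 trimer, are transcribed away from each other on mm10 chromosome 8, with RefSeq starts at 11312826 and 11312805, 21 bases apart. Col4a2 stood at 2.19 and 1.22 RPKM at 0 nM, 1.84 and 2.103 RPKM at 0.3 nM, 2.46 and 2.98 RPKM at 1 nM, 3.38 and 3.10 RPKM at 3 nM, 3.42 and 3.39 RPKM at 10 nM, and 4.64 and 4.86 RPKM at 100 nM. Its 0 nM libraries differed widely, at 82 and 48 counts, yet both lay below every library from 1 nM upward. The rise at 100 nM was 2.80-fold (log2 fold change 1.49, standard error 0.184, edgeR adjusted p = 8.01e-07) and ran from 1.11 to 1.963 on the log2 scale over the alternative settings. Col4a1 stood at 9.58 and 8.78 RPKM at 0 nM, 14.4 and 12.6 RPKM at 3 nM, and 14.2 and 14.5 RPKM at 100 nM (log2 fold change 0.64, standard error 0.102, edgeR adjusted p = 2.85e-05). Its call rests on a fold close to the minimum, and was lost without 0 nM replicate 2 (log2 fold change 0.58) and without the filter on low values (0.56). Of the 4 other collagen IV chains, all under the minimum, Col4a3 was called higher in the fit that includes low genes, while Col4a4, Col4a5 and Col4a6 were not called (edgeR adjusted p of 0.207 to 0.656). Per kilobase, Col4a1 exceeded Col4a2 4.37 and 7.23 times in the 0 nM libraries and 3.07 and 2.98 times in the 100 nM libraries.

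**Figure D5:**
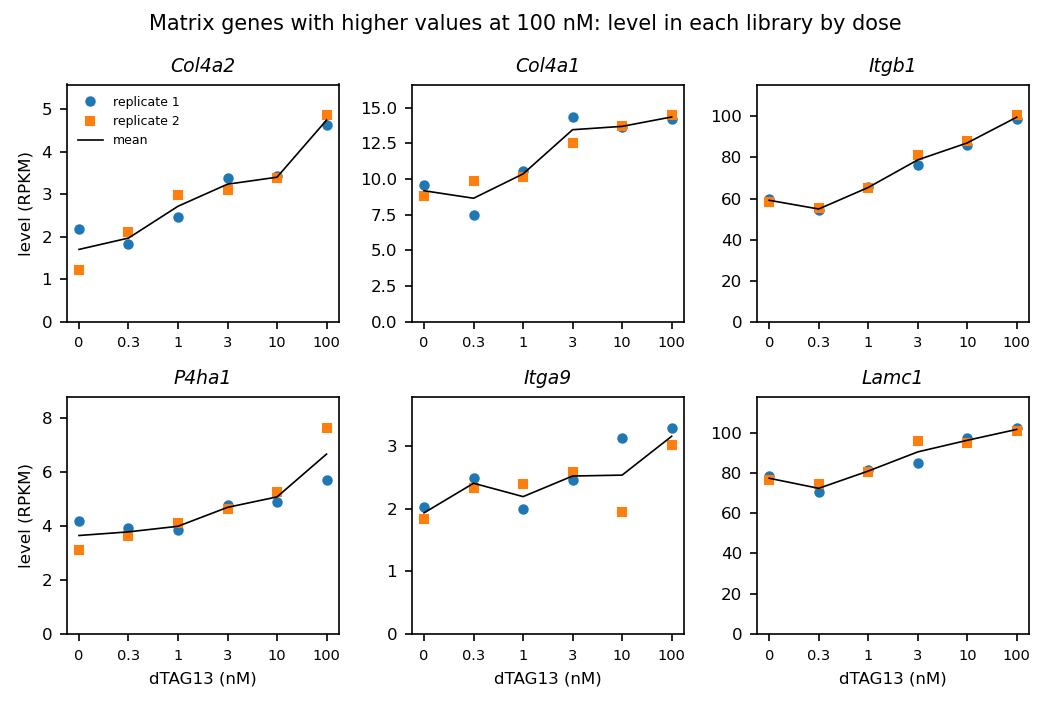
Level in RPKM (y axis, from 0, scaled for each gene) of the 5 matrix genes called higher at 100 nM and of Lamc1, which missed 1.5-fold, in each library by dTAG13 dose (x axis, equal steps). Circles and squares are replicates 1 and 2 and the line joins the means: Col4a2 goes from 1.70 to 4.75 RPKM and Itgb1 from 59.1 to 99.6 RPKM. The replicates of Col4a2 without dTAG13 and those of P4ha1 at 100 nM lie well apart.

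Fibrillar and other collagens were scarce in these cells. Of 11 fibrillar chains Col5a1 and Col2a1 met the minimum, and of 24 other chains Col9a2 did. Col5a1 stood at 2.27 and 2.23 RPKM at 0 nM and 1.54 and 1.87 RPKM at 100 nM, was called lower at 3 nM alone, and had a log2 fold change of -0.40 at 100 nM (edgeR adjusted p = 0.152). Col2a1 had a log2 fold change of 0.66 (edgeR adjusted p = 0.0854) and was not called. Col9a2 fell from 1.88 and 1.54 RPKM to 0.603 and 0.952 RPKM, from 30 and 26 counts to 10 and 16 counts (log2 fold change -1.12, edgeR adjusted p = 0.0395). That call was lost with DESeq2 (adjusted p = 0.134), without normalization factors (edgeR adjusted p = 0.058) and without any 1 of the 4 libraries compared (0.0561 to 0.26).

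The 63 genes under the minimum were tested in a second fit of all 23204 genes with a count. There 13 of them were higher and 1, Lama3, lower at 100 nM, where 4.07% of the 11826 genes under the minimum were called, 3.25% higher and 0.820% lower. Their median log2 fold change was 1.18, and that of all 11826 genes under the minimum was 0.88, so low genes in general had higher values at 100 nM. Called chains were Col7a1, Col4a3, Col5a3, Col11a2, Col24a1, Col6a3, Col6a4, Col9a3, Col12a1, Col20a1, Col22a1 and Col25a1, beside the integrin subunit Itgb2l. With DESeq2 1 of the 63 genes was called and with a fit of the 0 and 100 nM libraries alone 2. Leaving out 0 nM replicate 1 or 100 nM replicate 1 left 4, and leaving out 100 nM replicate 2 left 7. Col7a1, the anchoring fibril collagen of epithelia, kept its call in all 18 alternatives. It stood at 0.672 and 0.531 RPKM at 0 nM, 1.10 and 1.24 RPKM at 10 nM, and 1.49 and 1.74 RPKM at 100 nM, from 36 and 30 counts to 83 and 98 counts (log2 fold change 1.35, edgeR adjusted p = 4.90e-07). For Itgb2l, which had no count at 0 nM, 3 and 8 counts at 100 nM put its mean 1.78-fold above a floor of 3 counts per library. The library with 3 counts lies at that floor, so the excess rests on 1 library. Lower-dose calls in this fit were few, with Lama3 and Col17a1 lower at 3 nM and Lama3 lower and Col7a1, Col11a2 and Col16a1 higher at 10 nM, where 0.634% and 1.56% of genes under the minimum were called. Col17a1 and Col16a1 were named after their values were seen.

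Genes of the same pathway outside the 93 were set on 6 lists, written with earlier results of these data known. Of the 50 tested 12 fell and 2 rose at 100 nM, where 6.83% of all tested genes fell and 4.37% rose. Without 0 nM replicate 2 or 100 nM replicate 1, 1 gene was higher. None of 3 other integrin subunits tested was called. Of 6 other matrix proteins 2 fell, Agrn most, from a mean of 26.6 to 10.8 RPKM (log2 fold change -1.31, edgeR adjusted p = 1.12e-12). Agrn encodes agrin, a heparan sulfate proteoglycan that binds laminin. Of 9 other matrix receptors 3 fell, Bcam most, a laminin alpha 5 receptor, from 126 to 44.1 RPKM (log2 fold change -1.52, edgeR adjusted p = 4.72e-14). Of 10 further genes of collagen synthesis 2 fell, Pcolce and Fkbp10, and 1 rose. Pcolce, which enhances the cleavage of procollagen ends, fell from 55.4 ± 0.418 RPKM (SD, n = 2) to 14.4 ± 1.87 RPKM (SD, n = 2) (log2 fold change -1.94, edgeR adjusted p = 4.84e-13). Fkbp10, a prolyl isomerase that helps to fold collagen and was named after its values were seen, fell from 6.21 to 2.88 RPKM (log2 fold change -1.11, edgeR adjusted p = 4.26e-04) and was also called lower at 10 nM (-0.61, edgeR adjusted p = 0.0408). P3h3, a prolyl 3-hydroxylase, rose from 1.62 ± 0.0233 RPKM (SD, n = 2) to 3.70 ± 0.912 RPKM (SD, n = 2) (log2 fold change 1.19, edgeR adjusted p = 0.00268). Of 16 adhesion complex genes 2 fell, which is 12.5% beside 11.2% of all tested genes called in either direction. Tns1, which encodes tensin 1, had the larger fall (log2 fold change -1.01, edgeR adjusted p = 2.47e-04). Of 6 matrix proteases and their inhibitors 3 fell and 1 rose. Mmp14, a membrane-bound collagenase, fell from 12.3 to 4.49 RPKM (log2 fold change -1.45, edgeR adjusted p = 9.73e-08). Timp1, which encodes an inhibitor of matrix proteases, rose from 21.1 to 32.6 RPKM (0.63, edgeR adjusted p = 0.00445). Of 36 genes of these lists under the minimum, 10 were called higher and none lower in the second fit. There 4.07% of all genes under the minimum were called, 3.25% higher and 0.820% lower, with a median log2 fold change of 0.88. Some of the 10 calls rest on few counts, and they were not recomputed with DESeq2 or with libraries left out.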

How the data were processed

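The RNA-seq libraries of Brg1 knock-in mES cells at 6 dTAG13 doses, 2 per dose, were grouped by their labels. The authors deposited raw counts of read pairs per gene symbol, made from SMART-Seq Stranded libraries by trimming with Trim Galore, alignment to mm10 with HISAT2 and counting with featureCounts 2.0.1, which per the file headers did not use the strand. No normalization or filter had been applied to the counts, 0 columns were left unused, and coordinates and exon lengths are those given with the counts.

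Statistics were run in R 4.3.3 (edgeR 4.0.16, DESeq2 1.42.0). All libraries entered a single model of dose, restricted to the 11378 genes whose RPKM, after TMM scaling of the whole table, averaged 1 or more. Dose effects were tested against 0 nM with the quasi-likelihood F test of edgeR. The call needed a Benjamini-Hochberg adjusted p under 0.05 and over 1.5-fold, the thresholds in the study's methods, whose likelihood ratio test was an alternative. Printed RPKM used the library sizes and TMM factors of that fit. A second fit of the 23204 genes with a count gave the tests of genes under the minimum. Standard errors were derived from the fold change and its F statistic, and 95% intervals are normal intervals on the log2 scale. Folds against a dose with 3 counts or fewer per library are lower bounds, which cover counting error only. Promoter windows came from RefSeq on GRCm38.p6 and were checked for UTRs against GENCODE.

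Genes named were those called at any dose (the 30 with the smallest adjusted p at 100 nM where there were more), the most abundant gene of each role, Serpinh1, Lama1, Lamb1, Lamc1, Col4a1 and Col4a2. A gene counted among the 93 is not reported here on its own. Of the other lists, the called gene with the largest change in each direction was named. The genes, lists and comparisons were chosen with earlier results of these data known. Alternatives were the likelihood ratio test, DESeq2, other normalizations, no filter, no fold minimum, pairwise fits, a replicate block and each library left out. The fit was tested on simulated counts.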

Additional observations from a re-analysis of the deposited data

How the results depend on the processing

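Total counts of called matrix genes were recomputed under each alternative, and totals not printed here stayed within 1.5 times. The counts of rises moved by more, as given beside them, and without the filter on low values 1, 1, 4 and 17 genes were higher at 1, 3, 10 and 100 nM. The likelihood ratio test called 1 higher at 1 nM. With the adjusted p alone and no fold minimum, 3, 10, 19 and 20 genes passed at 0.3, 1, 3 and 10 nM (0.0703%, 2.29%, 9.40% and 17.9% of all tested genes), 13 between 0.3 and 3 nM, 16 between 1 and 10 nM, 9 between 10 and 100 nM, and 24 of the pathway genes outside the 93. Without the filter on low values 2 matrix genes were called at 0.3 nM, 32 at 100 nM and 24 pathway genes, with more genes tested. DESeq2 called 3 between 0.3 and 3 nM and 1 under the minimum, and pairwise fits called 3 between 10 and 100 nM and 2 under the minimum; the cause was not tested. Leaving out 1 library gave 0 to 1 at 0.3 nM, 3 to 4 at 1 nM, 9 to 12 at 3 nM, 11 to 13 at 10 nM, 15 to 18 at 100 nM, 2 to 5 between 0.3 and 3 nM, 8 to 9 between 1 and 10 nM, 2 to 5 between 10 and 100 nM, 4 to 15 under the minimum and 13 to 14 pathway genes, each left-out library leaving fewer samples. Of 652 values recomputed for 35 genes at 100 nM, 594 kept direction and call, 57 lost the call and 1 changed sign: Loxl3, never called, was at -0.61 to 0.13 without 100 nM replicate 2 or 1. Scaling moved the median of all tested genes by at most 0.05 (log2). The median of genes under the minimum moved more, from 0.88 to 0.93 with DESeq2 size factors and 0.997 without normalization factors.

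Deviations of same-numbered libraries correlated at -0.123 to 0.129, so no strong effect shared by replicate number was seen. Counting noise enters these deviations, so they cannot tell whether the libraries were handled in pairs. A replicate block gave 1, 4, 12, 11 and 18 calls at the 5 doses, as without it, and pairing the numbers crosswise gave 12 at 3 nM and 8 between 1 and 10 nM. With 2 libraries per dose no outlier could be tested, and at these depths genes with under about 50 counts per library had wide errors.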
